A study of Mus musculus with 563 samples.

Results

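Old haematopoietic stem cells (HSCs) of the HI group were compared with those of the MID group, using single cells from the bone marrow of Gfp-Lc3 mice. The 2 groups are those whose sample titles carry oHSC_HI or oHSC_MID. Both groups share the age label old, the tissue label bone marrow, the cell type label Haematopoietic stem cell, the genotype label Gfp-Lc3 and the treatment label steady state isolation. The labels do not say what HI and MID are high and middle in; the series' design text says only that GFP-LC3 and surface markers were recorded for each sorted cell, and its title speaks of autophagy in old HSCs. Gfp-Lc3 mice carry a transgene that fuses green fluorescent protein to LC3, the protein that coats autophagosomes; its promoter is not given in the sources used here. Each cell was sorted into its own well and made into its own library by a modified Smart-seq2 protocol, which reads whole transcripts without molecular identifiers. Of 280 deposited HI and MID cells, 263 were kept, out of 533 kept of 563 in the whole series. Cells were kept from 50000 nuclear gene reads upward, if they also read 1000 or more nuclear genes and no more than 20% of their reads were mitochondrial. All 17 cells left out had too few reads: the deepest of them held 46629 reads and the shallowest kept cell 50339.

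The cells lie in 2 deposited count tables, with 68 of 71 HI and 68 of 72 MID cells kept in the first and 61 of 65 HI and 66 of 72 MID cells in the second. Animals are not named in any label. Each group is therefore treated as 1 sample, no test was run between the groups, and intervals cover counting error only; reads copied by PCR are not independent molecules. The difference was taken within each table and then averaged, as HI minus MID on the log2(CPM + 1) scale, where CPM is reads per 1000000 nuclear gene reads of the summed group. The 2 tables show whether a difference was seen again in other cells, but they are not known to be other animals. A size rule chose the genes called higher or lower: an average difference of 1 or more in size, 0.58 or more in the same direction in both tables separately, 20 CPM or more on the higher side, reads there in 20% or more of the cells of both tables separately, and no cell holding over 20% of that side's reads. Old LO and young cells served only as reference levels.

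A stem cell that leaves quiescence first raises G1 cyclins and their kinases, which release E2F factors. E2F factors switch on genes for origin licensing, DNA synthesis and nucleotide supply in S phase. Later, in G2 and M phase, genes for mitotic kinases, the spindle and the kinetochore rise together, through promoter elements called the cell cycle genes homology region (CHR) and the CCAAT box. Most HSCs in adult marrow are quiescent, so such genes are usually read in a minority of them.

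More HI than MID cells read genes of G2 and M phase, in both tables. After every cell was thinned to 100000 reads (250 cells, 13 were too shallow), at least 8 of 30 G2 and M phase markers were read in 40 HI cells, 32.5% of those thinned (95% Clopper-Pearson interval 24.4 to 41.6%). The same was true of 10 MID cells, 7.87% (3.84 to 14.004%). In the first table the shares were 27.7% of HI and 9.23% of MID cells, and in the second 37.9% and 6.45%. For reference, 4.88% of LO cells and 14.1% of young cells passed the same mark. The 30 markers are expressed in dividing cells of any type, so they mark a phase and not a lineage.

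Among the cell cycle genes that name the comparison, Nuf2 (ENSMUSG00000026683, mm10 chromosome 1, 169497934 to 169531464, minus strand) encodes a kinetochore protein that holds microtubules. It was read in 41 thinned HI cells (33.3%) and 9 thinned MID cells (7.09%). Aurkb (ENSMUSG00000020897, chromosome 11, 69045647 to 69051664, plus strand) encodes the kinase of the chromosomal passenger complex; 35 HI and 10 MID thinned cells had a read. Mki67 (ENSMUSG00000031004, chromosome 7, 135689784 to 135716361, minus strand) encodes the Ki-67 protein that coats mitotic chromosomes; 44.7% of HI and 25.2% of MID cells had a read.

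Promoters are shown for these genes, for the other leading genes higher in HI and for the 2 genes lowest in HI, because the higher and lower genes differed in the letters they carry. Each window runs from 250 bases before to 50 bases after a RefSeq transcript start (GRCm38.p6), 5′ to 3′ on the gene's strand, in lower case with matches to CHR (TTTGAA) and the CCAAT box (CCAAT) in capitals, on either strand. RefSeq's start can differ from the end of the gene model that the counts use.
Nuf2 (chr1:169531415-169531714, minus strand): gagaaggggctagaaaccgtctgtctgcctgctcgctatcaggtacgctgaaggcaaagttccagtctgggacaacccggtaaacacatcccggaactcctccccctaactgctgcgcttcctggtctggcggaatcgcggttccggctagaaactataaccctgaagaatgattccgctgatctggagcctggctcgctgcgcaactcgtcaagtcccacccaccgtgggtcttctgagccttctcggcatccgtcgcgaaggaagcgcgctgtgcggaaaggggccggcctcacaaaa
Mki67 (chr7:135716330-135716629, minus strand): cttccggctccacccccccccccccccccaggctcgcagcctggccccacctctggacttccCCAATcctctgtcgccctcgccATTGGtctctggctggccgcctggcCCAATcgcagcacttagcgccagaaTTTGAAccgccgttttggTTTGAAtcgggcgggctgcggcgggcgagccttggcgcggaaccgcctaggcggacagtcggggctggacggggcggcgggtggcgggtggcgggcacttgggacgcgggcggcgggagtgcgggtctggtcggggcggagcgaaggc
Kif4 (chrX:100625815-100626114, plus strand): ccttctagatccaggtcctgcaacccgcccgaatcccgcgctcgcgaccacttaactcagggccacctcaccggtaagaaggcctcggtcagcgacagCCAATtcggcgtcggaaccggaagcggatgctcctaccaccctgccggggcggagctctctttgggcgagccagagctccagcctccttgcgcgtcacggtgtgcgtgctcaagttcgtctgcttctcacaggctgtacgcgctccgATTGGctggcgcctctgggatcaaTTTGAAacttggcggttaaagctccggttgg
Eme1 (chr11:94653694-94653993, minus strand): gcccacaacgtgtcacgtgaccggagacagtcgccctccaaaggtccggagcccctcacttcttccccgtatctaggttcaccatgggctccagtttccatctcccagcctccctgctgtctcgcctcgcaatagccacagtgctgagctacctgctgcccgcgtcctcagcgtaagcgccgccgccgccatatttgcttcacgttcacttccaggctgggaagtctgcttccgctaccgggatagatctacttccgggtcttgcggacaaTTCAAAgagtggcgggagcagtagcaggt
Mill2 (chr7:18839716-18840015, plus strand): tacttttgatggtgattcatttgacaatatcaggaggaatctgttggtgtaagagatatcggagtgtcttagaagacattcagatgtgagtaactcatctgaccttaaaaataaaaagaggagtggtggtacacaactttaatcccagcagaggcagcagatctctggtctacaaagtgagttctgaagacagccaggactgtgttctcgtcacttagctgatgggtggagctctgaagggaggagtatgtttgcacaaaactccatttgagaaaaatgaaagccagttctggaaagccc
Klf12 (chr14:100149747-100150046, minus strand): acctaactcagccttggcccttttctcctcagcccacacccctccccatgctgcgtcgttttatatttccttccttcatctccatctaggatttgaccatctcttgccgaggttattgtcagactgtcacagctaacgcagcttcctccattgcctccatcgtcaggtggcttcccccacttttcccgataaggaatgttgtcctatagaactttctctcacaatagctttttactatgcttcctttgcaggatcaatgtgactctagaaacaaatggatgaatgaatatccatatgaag
Mki67 held 2 CHR and 3 CCAAT matches, Kif4 held 1 CHR and 2 CCAAT matches, and Eme1 held 1 CHR match. Nuf2, Mill2 and Klf12 held neither motif in these windows.

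Motif shares were counted over all such windows of the genes tested, of which 8063 of 10685 had at least 1 window (10282 windows). CHR letters were in 37.2% of 172 windows of genes higher in HI by the size rule, in 6.38% of 47 windows of lower genes and in 11.9% of all windows. CCAAT letters were in 57.6%, 27.7% and 37.6%. The E2F motif, searched as TTTCCCGC, TTTGGCGC, TTTCGCGC and TTTGCCGC on both strands and apart from the other motifs, was in 13.4%, 6.38% and 4.28%. Among the 30 G2 and M phase markers 76.9% of windows held CHR and 3.85% E2F, while among S phase markers 8% held CHR and 44% E2F. Median GC content was 59.7% in the windows of higher genes, 64.3% in those of lower genes and 61% in all. The higher genes that are in no cell cycle list held CHR in 20% of windows. Aurkb was not matched. These are descriptions of letters in a window; no match was tested as a site.

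At the level of all genes, 10685 genes passed a level filter of 10 CPM, averaged over the HI and MID sums, with reads in 10% or more of these cells. By the size rule, 192 of them were higher in HI (1.80% of genes tested) and 49 were lower (0.459%). Of the 192 higher genes, 52.6% belonged to a list of cell cycle genes, and 60.4% when recombination and Fanconi repair genes are added; of all genes tested, 2.37% were in a cell cycle list. None of the 49 lower genes did (0 of 49), which is near that share, among 253 cell cycle genes tested. The median difference over all genes was 0.02. Agreement between the tables was limited: across genes, which are not independent replicates, Pearson's r of the 2 differences was 0.302. Of 739 genes with a first-table difference of 1 or more in size, 519 (70.2%) went the same way in the other table.

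**Figure D1:**
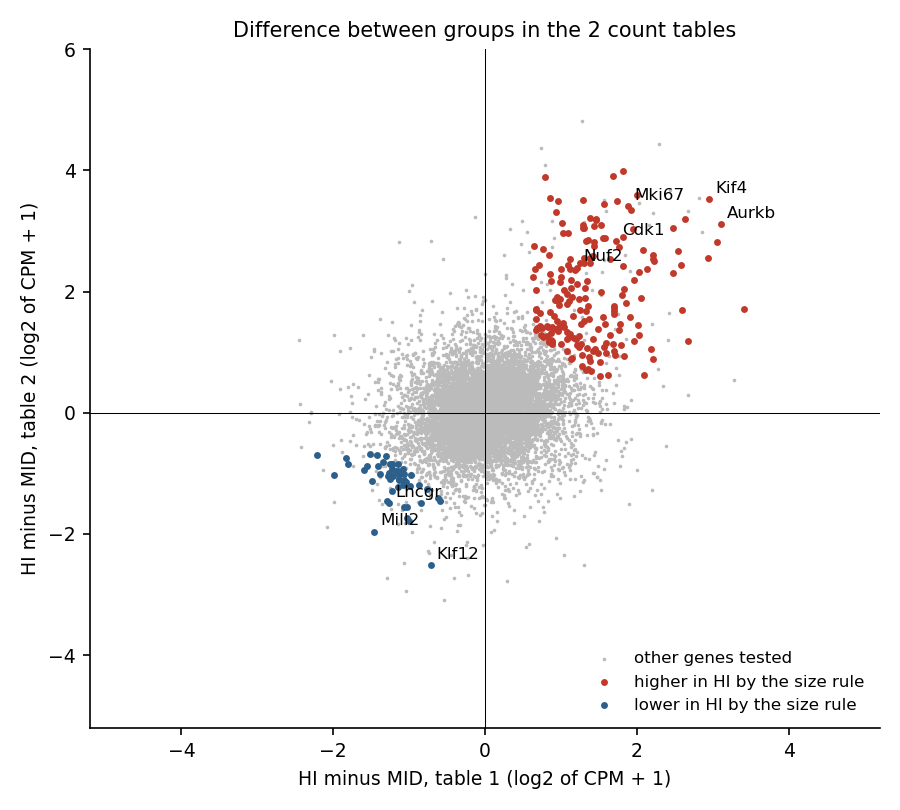
Each point is 1 of 10685 genes; the x axis is the HI minus MID difference in the first count table and the y axis that in the second, both on the log2(CPM + 1) scale. The 192 genes higher in HI by the size rule (red) lie to the upper right and the 49 lower genes (blue) to the lower left; Mki67, Cdk1, Nuf2, Kif4 and Aurkb are named among the red points and Mill2, Klf12 and Lhcgr among the blue, and grey points are the other genes tested.

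The 12 genes furthest above MID by the size rule were all genes of replication, DNA repair or division. Kif4, a chromosome-bound kinesin motor, stood at 4.66 and 8.37 CPM in the MID sums of the 2 tables and at 42.7 and 107.03 CPM in the HI sums, a difference of 3.24 (2.95 and 3.53 by table). Both HI sums were above both MID sums, and the same held for each of the other genes named in this paragraph. Aurkb stood at 8.90 and 27.2 CPM in MID and 84.4 and 243 CPM in HI, a difference of 3.11 in each table. Mki67 stood at 84.4 and 101.4 CPM in MID and 315 and 1091 CPM in HI, a difference of 2.65 (1.89 and 3.41). Ccne1, the cyclin that drives entry into S phase, differed by 2.92, and Ccnb2, a mitotic cyclin, by 2.90. Stil, needed for centriole duplication, differed by 2.80, and Kif11, the motor that separates spindle poles, by 2.79. The replication-dependent histone Hist1h2ab differed by 2.76, Cdca5 (sororin, which stabilises cohesin) by 2.75, Arhgap11a, of the cytokinesis list, by 2.64, and Cdc20, an activator of the anaphase-promoting complex, by 2.62. Eme1, part of a nuclease that resolves DNA joints, differed by 2.94. Kif4 overlaps Pdzd11, Eme1 overlaps Lrrc59 and Mrpl27, and Cdc20 overlaps Elovl1 on the opposite strand; the protocol as labelled marks no strand, so shared reads are uncertain. Reads of Hist1h2ab may also be shared with near-identical histone genes.

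Nuf2 was lower in this order, with 20.0 and 18.9 CPM in MID and 47.7 and 103.43 CPM in HI, a difference of 1.80 (1.21 and 2.39). It rested on 786 MID reads (95% Poisson interval 732 to 843) and 3711 HI reads (3593 to 3832). Per cell, Nuf2 ran from 0 through a median of 0 to 682 CPM in MID and from 0 through a median of 0 to 800 CPM in HI; the upper quartile was 0 in MID and 49.8 CPM in HI. Aurkb also had a median of 0 in both groups, with highest cells at 1131 CPM in MID and 912 CPM in HI. Mki67 ran from 0 through 0 to 2444 CPM in MID and from 0 through 3.22 to 4854 CPM in HI. The ranges of single cells overlapped, and more HI than MID cells had a read of each of these genes.

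A few MID cells carried most of MID's reads of these genes. Of the 30 markers' reads, cell 47 held 54.8% of MID's in the first table and cell 98 held 50.7% in the second, while the highest HI cell held 15.2% and 14.4%. Without MID cell 98 the Aurkb difference was 4.19, and without MID cell 47 that of Ccnb2 was 4.26 and that of Kif11 was 3.66. Without MID cell 18 of the first table the Hist1h2ab difference was 3.65. With cells 47 and 98 both left out, an alternative added after these cells were seen, Nuf2 differed by 3.09, Aurkb by 4.63 and Mki67 by 3.41, and 210 genes were higher by the size rule. The sizes of these differences thus moved with single MID cells, and the values without these cells were higher. Cells 47 and 98 held the most marker reads of MID in their tables. Higher marker differences without them were therefore set by that choice and are no finding. Without the 3 HI cells richest in marker reads in each table, Mki67 differed by 2.06 and Aurkb by 2.55.

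**Figure D2:**
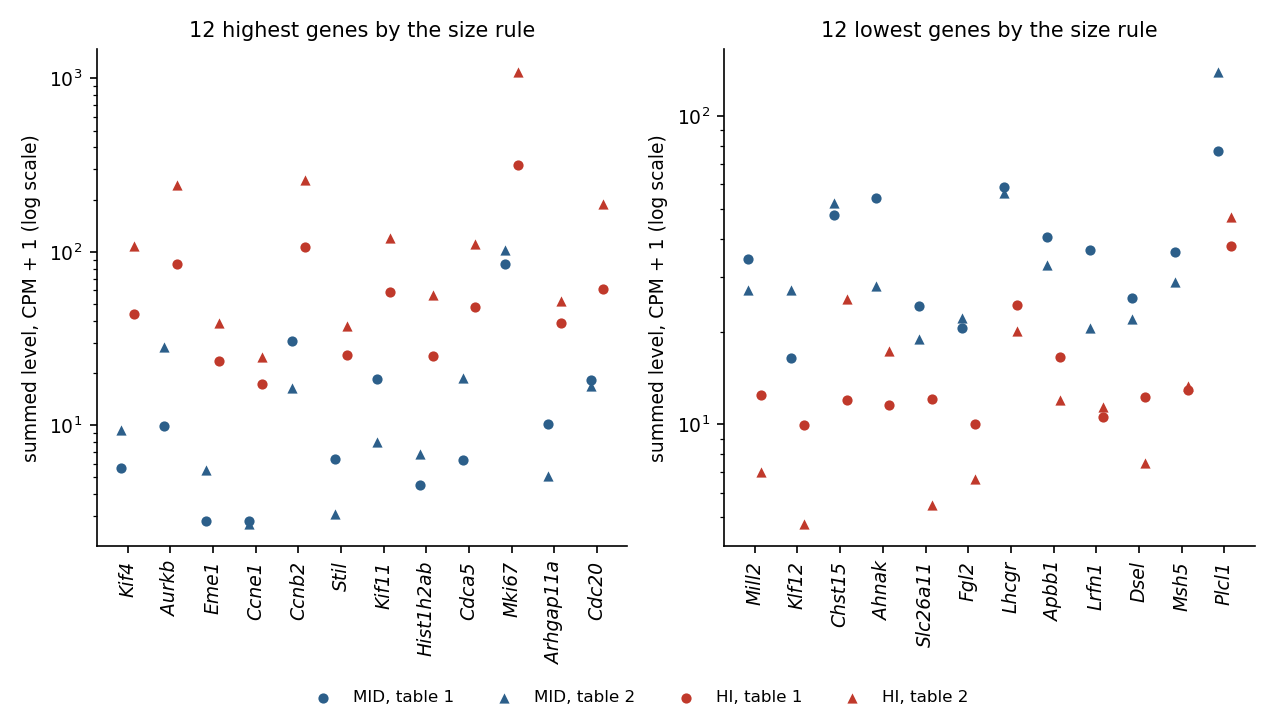
Summed level of each gene in CPM + 1 on a log scale, for the 12 genes highest (left) and 12 lowest (right) by the size rule; blue marks MID, red HI, circles the first table and triangles the second. In each gene on the left both red marks are above both blue marks, as for Mki67 (315 and 1091 against 84.4 and 101.4 CPM), and on the right both are below.

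Most cells lay towards the ends of the marker scale. All 30 G2 and M phase markers were read in 15 thinned HI cells and 3 MID cells, 20 to 29 markers in 14 and 2 cells, and 10 to 19 markers in 9 and 4 cells. Near the threshold, 8 or 9 markers were read in 2 HI and 1 MID cells and 6 or 7 markers in 5 HI and 1 MID cells. With 0 to 3 markers there were 63 HI and 99 MID cells. Cells at or above 8 markers held 94.6% of HI's marker reads in the first table and 97.9% in the second, and 87.5% and 86.8% of MID's. Without thinning, 38.8% of HI cells and 11.2% of MID cells passed. The share held across sets of consecutive cell numbers in the titles: 34.8%, 26.3% and 21.7% in the 3 HI sets of the first table against 14.3%, 9.52% and 4.35% in the MID sets. In the second table the HI sets had 41.7%, 31.3% and 38.9%, and the MID sets 4.17%, 15.8% and 0 of 19 cells. Every HI set was above every MID set of either table.

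**Figure D3:**
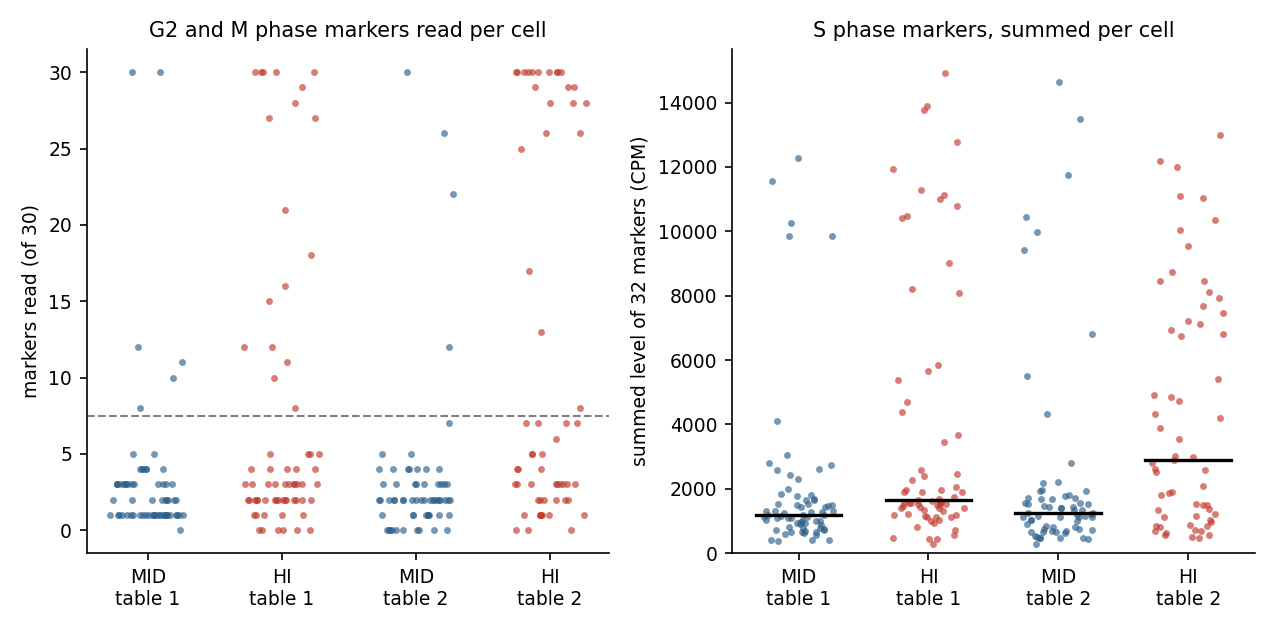
Each point is a cell; the left panel gives how many of 30 G2 and M phase markers had a read after thinning to 100000 reads, with a dashed line below 8 markers, and the right panel the summed level of 32 S phase markers in CPM with a bar at the median. HI has 18 and 22 cells at or above 8 markers in the 2 tables against 6 and 4 in MID, and S phase medians of 1644 and 2905 CPM against 1194 and 1255.

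Entry into the cycle was followed through its steps, with genes counted as higher or lower when past 1.5-fold with the same sign in both tables, which 4.06% of all genes tested were upward and 2.11% downward. Of 17 G1 cyclins, CDKs and E2F activators, 8 were higher and 0 lower, with a median difference of 0.59. Cdk6, a G1 kinase of blood progenitors, was read in nearly every cell: per cell it ran from 0 through 397 to 2140 CPM in MID and from 0 through 702 to 2486 CPM in HI. Its sums were 553 and 515 CPM in MID and 848 and 889 CPM in HI, a difference of 0.70 that came from a shift of the middle of the cells, unlike Mki67. E2f1, the S phase transcription factor, differed by 1.63. The D cyclins did not pass this mark, with differences of 0.13 for Ccnd1, −0.30 for Ccnd2 and 0.03 for Ccnd3; nor did Cdk4 (0.53). Myc differed by −0.48, with 0.00 in the first table and −0.96 in the second. Of 15 CDK inhibitors and pocket proteins, which hold cells out of the cycle, 1 was higher (the pocket protein gene Rbl1, 0.76) and 0 lower, with a median of 0.29 (0.07 and 0.02 by table). Cdkn2c, the p18 inhibitor, had the highest difference, 0.87 (0.36 and 1.38). Cdkn1c, the p57 inhibitor of quiescent HSCs, stood at 89.7 and 92.8 CPM in MID and 62.2 and 57.4 CPM in HI (−0.60), Cdkn1a at −0.44 and Cdkn1b at −0.20, none past 1.5-fold in both tables. Without MID cell 72 of the first table, which held 53.3% of MID's Cdkn1a reads there, the Cdkn1a difference was 0.025. Ccnd1, Ccnd3 and Cdk4 overlap a gene on the opposite strand, as do Map1lc3b, Sqstm1 and Mecom, given further on.

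Many genes of DNA synthesis were also higher in HI. Of 23 origin licensing genes, 10 were higher (median 0.75, with 0.34 and 0.74 by table). Of 34 replication fork genes and polymerases, 20 were higher (median 0.86, with 0.86 and 0.87 by table). Of 21 nucleotide synthesis genes 11 were higher (median 0.69), and of 16 histone genes and chaperones 9 (median 0.81); none of these lists had a lower member. Mcm5, a subunit of the replicative helicase, stood at 109.3 and 201.1 CPM in MID and 284 and 383 CPM in HI, a difference of 1.15 (1.37 and 0.93). It was read in 64.2% of thinned HI and 32.3% of MID cells, and per cell ran from 0 through 116.39 to 1986 CPM in HI and from 0 through 0 to 1482 CPM in MID. Rrm2, the regulated subunit of ribonucleotide reductase, differed by 2.25, with a read in 33.3% of HI and 11.02% of MID cells. Tyms, which makes thymidylate, differed by 1.20, and Pcna, the sliding clamp, by 0.88. Summed over 32 S phase markers, the median cell stood at 1910 CPM in HI and 1236 CPM in MID, and the HI to MID ratio was between 1.23 and 3.21 in the 6 sets of cell numbers. Of 28 homologous recombination and Fanconi genes, 17 were higher and 0 lower (median 1.05), led by Eme1 (2.94) and Fancd2 (2.10).

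Mitotic genes, which act after DNA synthesis, were also mostly higher in HI. Of 23 mitotic kinases, B cyclins and regulators, 21 were higher and 0 lower (median 2.20); Cdk1, the mitotic kinase, differed by 2.28 (1.72 and 2.83) and Plk1, another mitotic kinase, by 2.20, or by 3.76 without MID cell 47. Of 30 spindle genes and kinesins, 26 were higher (median 1.86), of 35 kinetochore and centromere genes 26 (median 1.56), of 23 condensation and cohesion genes 13 (median 1.002), and of 16 anaphase-promoting complex and cytokinesis genes 9 (median 1.59). None had a lower member. Top2a, the topoisomerase that untangles chromosomes, differed by 2.10 and was read in 54.5% of thinned HI and 23.6% of MID cells. Numa1 (−0.22), a spindle pole protein, and Pttg1 (0.01), securin, were the lowest members of the spindle and the cohesion lists. In each of these lists the median was larger in the second table, for example 2.83 against 1.57 for the mitotic kinases. The lists and their members were chosen with earlier results of these data known, so their direction is a description.

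**Figure D4:**
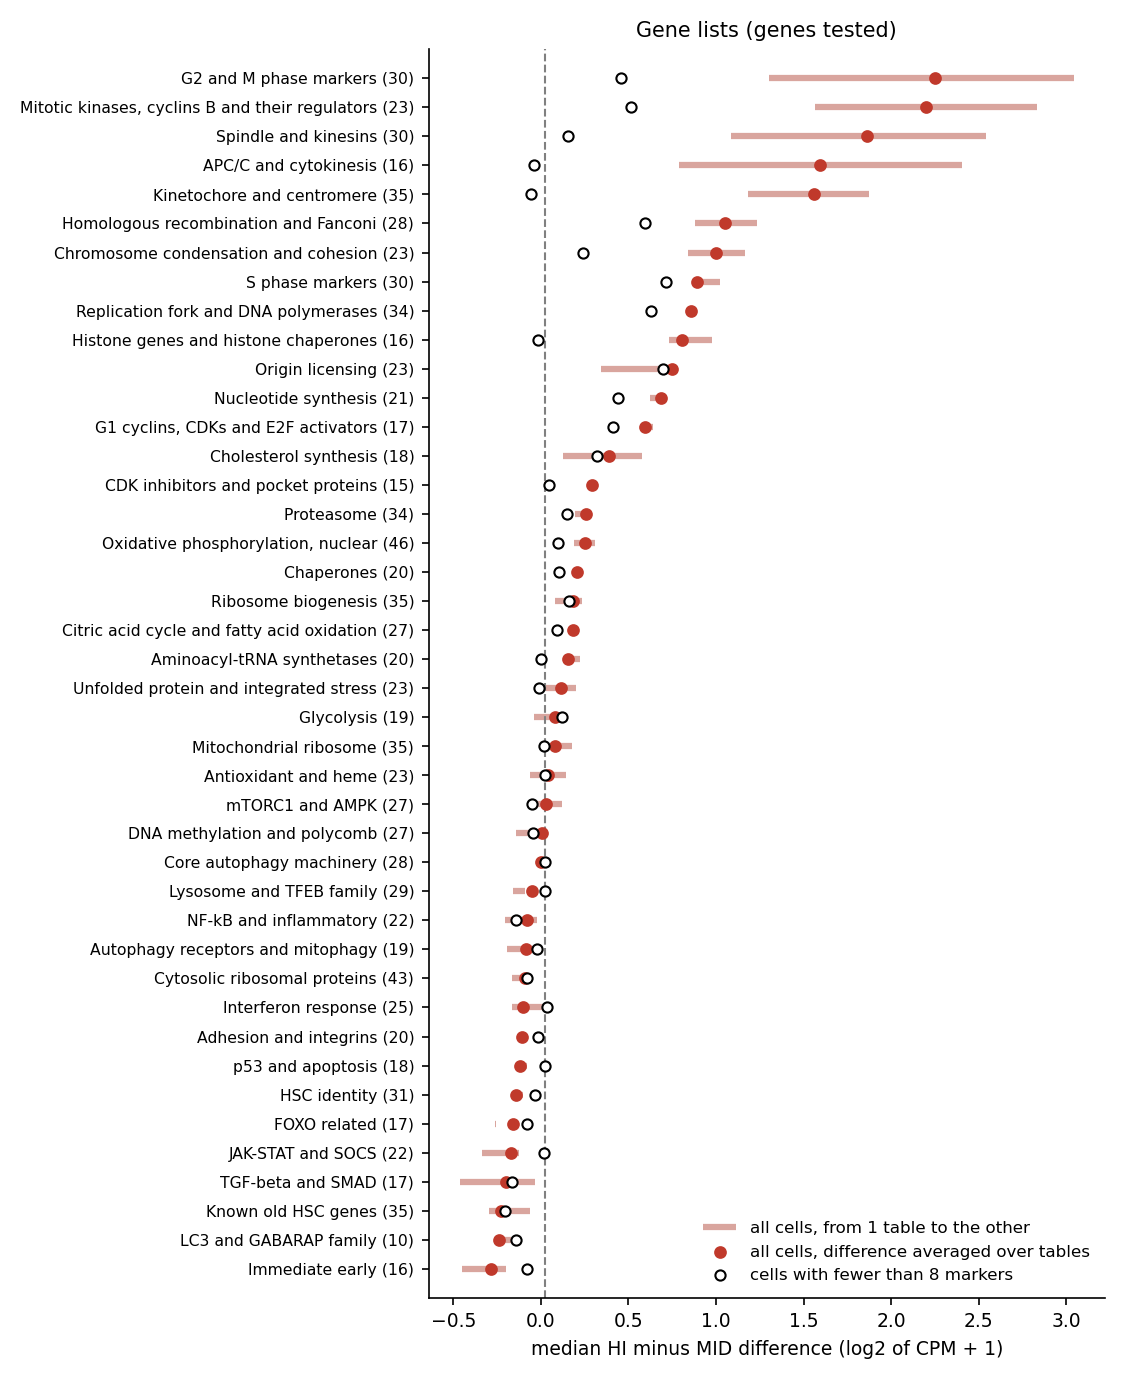
Median HI minus MID difference of each gene list on the log2(CPM + 1) scale, with the number of genes tested in brackets; red points average the 2 tables, bars run between the tables' own medians, open points use only cells with fewer than 8 G2 and M phase markers, and the dashed line is the median of all genes (0.02). Numbers in brackets are for all cells. The G2 and M phase markers stand at 2.25 with all cells, while their open point (0.46) covers the 2 markers that passed the level filter there; the S phase markers stand at 0.89 (30 tested) and 0.72 (26 tested), and a median of averages can lie outside the bar.

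The comparison was repeated among cells with fewer than 8 G2 and M phase markers, where the markers' own levels are set by that choice and are no finding. S phase markers were not used in that choice, so cells rich in them stayed in. Their summed level per cell had a median of 1525.6 and an upper quartile of 2520.5 CPM in HI. In MID these were 1157.6 and 1558.8 CPM. In these cells 64 genes were higher (0.605% of 10586 tested) and 57 lower (0.538%) by the size rule. Of the 192 genes higher with all cells 26 were higher here too, and of the 49 lower genes 25 were lower here too. Many of the 192 did not pass the level filter here and so could not be called. For those genes, not being called here does not mean that the difference was lost. In a cell cycle list were 4 of the 64. The share of such genes among all genes tested here was not counted, and with all cells it was 2.37%. Fewer of them passed the level filter here, for example 6 of the 25 listed in the mitotic kinase list, so the 4 cannot be called few or many. S phase markers had a median of 0.72 (0.47 in the first table and 1.11 in the second, 26 tested), and origin licensing genes 0.70 (0.14 and 0.84, 20 tested). Replication fork genes had 0.63 (0.37 and 0.64, 31 tested) and recombination genes 0.60 (0.18 and 0.94, 19 tested), so these medians were larger in the second table. Fewer members of the later lists passed the level filter here, so their medians cover other genes than before: −0.05 for 12 kinetochore genes, −0.04 for 8 genes of the anaphase-promoting complex list and −0.02 for 11 histone genes. Past 1.5-fold in both tables were 5 of 20 licensing and 7 of 31 fork genes upward, beside 2.30% of all genes tested here; no member of these lists was lower, beside 2.36% of all genes. Atad5, which unloads the sliding clamp, was the gene furthest above MID among these cells, at 5.33 CPM in MID and 35.95 CPM in HI (2.57). Mcm5 differed by 1.42, the ubiquitin ligase adaptor gene Dtl stood at 22.4 CPM in MID and 63.2 CPM in HI (1.42), and Cdk6 differed by 0.81. Ezh2, the polycomb methyltransferase, differed by 1.03 over all cells and by 0.04 among these cells.

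None of the 49 genes lower in HI by the size rule was in a cell cycle list, which is near the 2.37% of all genes tested. Those named had reads in both groups. Mill2, an MHC class I-like gene, stood at 33.3 and 26.2 CPM in MID and 11.5 and 5.997 CPM in HI (−1.71). It was read in 37.01% of thinned MID and 22.8% of HI cells. Klf12, a Krüppel-like transcription factor gene, differed by −1.62, unevenly by table (−0.72 and −2.52). Lhcgr, the luteinizing hormone receptor, stood at 57.9 and 55.4 CPM in MID and 23.5 and 19.1 CPM in HI (−1.38), and per cell ran from 0 through 8.51 to 407 CPM in MID and from 0 through 1.68 to 310 CPM in HI. Plcl1, a phospholipase C-like protein, stood at 76.1 and 137.9 CPM in MID and 36.9 and 46.1 CPM in HI (−1.29), with a read in 74.8% of thinned MID and 47.2% of HI cells. The others of the 12 lowest were Chst15 (−1.51), a sulfotransferase, Ahnak (−1.46), a giant scaffold protein, Slc26a11 (−1.40), an anion transporter, Fgl2 (−1.38), Apbb1 (−1.38), Lrfn1 (−1.32), Dsel (−1.31) and Msh5 (−1.31), a meiotic MutS homologue. Chst15 overlaps Fgfr2 on the same strand and Fgl2 overlaps Ccdc146 on the opposite strand. Among the low-marker cells the difference was −1.25 for Mill2, −1.71 for Klf12, −1.53 for Lhcgr and −0.92 for Plcl1. Without the last set of cell numbers of each table, an alternative added after that set was seen to stand apart, 84 genes were lower and Mill2 differed by −2.38.

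HSC identity genes were read in both groups. All thinned HI and MID cells (100%) had a read in at least 3 of 32 HSC identity genes. The summed level of these genes had a median of 8577 CPM in HI and 9883 CPM in MID. At least 3 of 24 platelet and megakaryocyte markers were also read in 100% of the thinned cells of both groups. At least 3 of 10 multipotent progenitor markers were read in 65.9% of HI and 62.2% of MID cells. This mark alone therefore does not set HSC identity apart. Of 31 HSC identity genes tested, 0 were higher and 2 were lower past 1.5-fold in both tables (median −0.14), beside 4.06% and 2.11% of all genes tested. These were Procr and Robo4. Procr, the protein C receptor that marks HSCs in surface sorts, had sums of 240 and 273 CPM in MID and 127.77 and 138.75 CPM in HI (−0.94), and per cell it ran from 0 through 167 to 1020 CPM in MID and from 0 through 84.4 to 1139 CPM in HI. Robo4, an endothelial and HSC receptor, differed by −0.88. Among low-marker cells Procr differed by −0.55 and Robo4 by −0.94. Hlf, a transcription factor of HSCs, differed by −0.53 and Mecom by −0.13, while Slamf1 (CD150) differed by 0.58 and Cd34 by 0.76 (0.18 and 1.33 by table). Of 35 genes known from old HSCs, 1 was higher and 3 lower (median −0.23); Zg16 (1.12), a lectin-like gene, met the size rule upward and Tm4sf1 (−1.001), a membrane protein, downward. Selp (−0.31) and Vwf (0.03), both megakaryocyte-associated, did not reach it.

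Transgene RNA differed less between the groups than between the tables of MID. eGFP summed to 831 CPM in HI (41527 reads) and 890 CPM in MID (35985 reads); by table HI had 805 and 855 CPM and MID 739 and 1020 CPM, so the order turned between the tables. The median cell had 688 CPM in HI and 607 CPM in MID, with quartiles of 443 to 990 and 327 to 1221 CPM. The rat Lc3b part of the transgene had 792 and 814 CPM. GFP-LC3 protein, which the sort recorded, was not analysed here. Within HI, cells with at least 8 markers had a median of 483 eGFP CPM against 846 in the others, and within MID 312 against 683.

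Few autophagy genes passed the 1.5-fold mark in both tables, as did few of all genes tested (4.06% upward and 2.11% downward). Of 28 core autophagy genes 0 were higher and 0 lower (median 0.00), and the counts were the same for 10 genes of the LC3 and GABARAP family (median −0.24) and 29 lysosomal genes (median −0.05). Mouse Map1lc3b stood at 291 and 329 CPM in MID and 271 and 263 CPM in HI (−0.21); Map1lc3a differed by −0.80, Gabarapl1 by −0.47 and the receptor Sqstm1 by −0.05. Of 19 autophagy receptor and mitophagy genes, 1 was higher (Bcl2l13, 0.75). Among lists with at least 10 genes tested, those outside the cycle and repair lists with the largest medians were cholesterol synthesis (0.39, with 3 of 18 higher and Hmgcs1 at 1.28), the proteasome (0.26, 2 of 34) and nuclear oxidative phosphorylation (0.25, 0 of 46). The immediate early list had the lowest median of these (−0.28, 0 higher and 2 lower of 16). Its lowest members were uneven between the tables, Egr1 at −1.25 (0.28 and −2.78) and Fos at −0.91 (−0.50 and −1.33), and neither was counted as lower. Of 17 FOXO-related genes 2 were lower, and Irs2, an insulin receptor substrate, was at −1.17. In the list of DNA methylation and polycomb genes, 2 of 27 were higher and 2 lower; Chd7, a chromatin remodeller, was at −1.13.

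RNA content moved with the groups. Gene reads per spike-in read had a median of 75.1 in HI and 47.2 in MID, with HI higher in all 6 sets of cell numbers by 1.23 to 1.86 times. The last set of each table stood apart, with more reads per spike-in in both groups. At equal depth the median HI cell had 7193 genes with a read and the median MID cell 6551, and mitochondrial reads were 1.94% and 2.29%. Within HI, cells with at least 8 markers had 107.2 gene reads per spike-in read and the others 57.2, and within MID 78.9 and 44.5; among the others HI was again above MID. The part of RNA content in the results was not tested. Depth before thinning was also higher in HI, with a median of 340529 nuclear reads (64580 to 1064879) against 254723 (50339 to 959163).

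**Figure D5:**
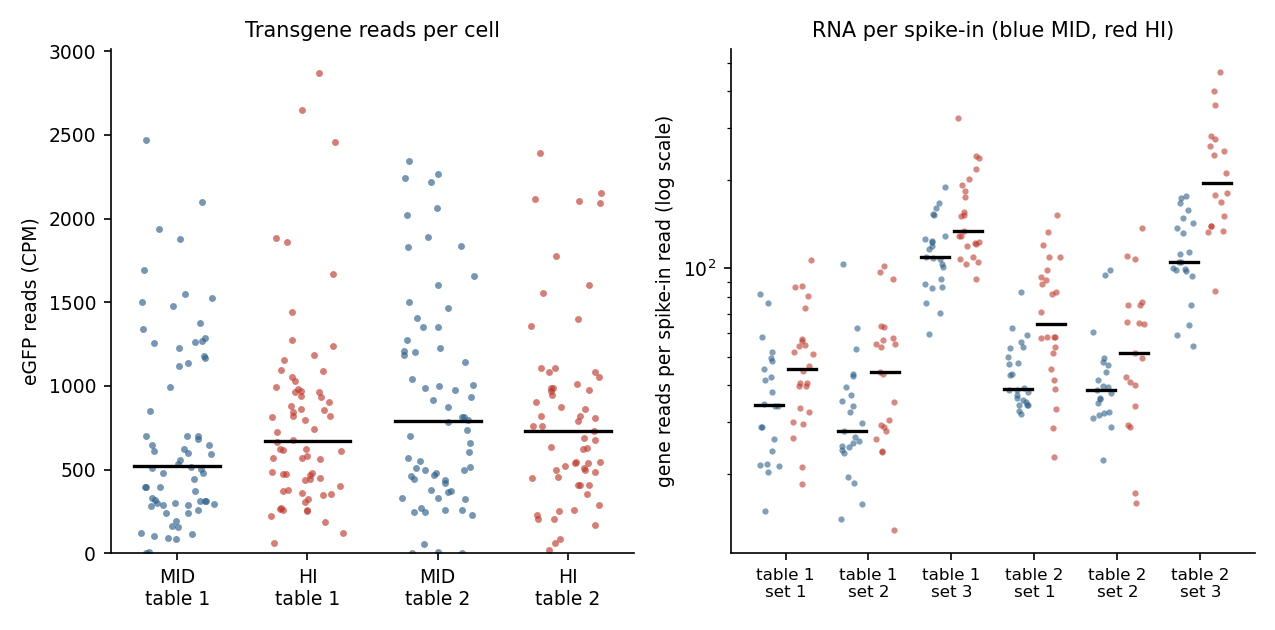
The left panel gives eGFP reads per cell in CPM by group and table and the right panel gene reads per spike-in read on a log scale by table and set of cell numbers; points are cells, blue for MID and red for HI, and bars are medians. The eGFP medians are 524 and 790 CPM in MID and 671 and 730 CPM in HI, and the median of HI lies above that of MID in reads per spike-in in each set.

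Some markers of other blood cells also moved with the groups. At least 3 of 17 erythroid markers were read in 54.5% of thinned HI and 40.2% of MID cells, with a summed median of 1716 CPM (247 to 5209) against 1284 CPM (23.5 to 4527). At least 3 of 12 dendritic cell markers were read in 65.9% of HI and 77.2% of MID cells, with medians of 717 and 1127 CPM; in each group 1 of these markers had no read. At least 3 of 14 monocyte and macrophage markers were read in 17.9% and 11.8%, 3 of 23 lymphoid markers in 8.94% and 3.94%, 3 of 16 neutrophil markers in 18.7% and 18.9%, 3 of 15 stromal and endothelial markers in 14.6% and 18.1%, and 3 of 11 mast cell and basophil markers in 0.813% and 0%. No read was found in HI for 4 and in MID for 9 of the lymphoid markers, and for 7 and 5 of the mast cell and basophil markers. The monocyte and dendritic factor gene Irf8 differed by 1.73, and by 1.04 without 1 HI cell that held 67.2% of HI's reads in the first table. Of the lists, 5 of 17 erythroid and 5 of 12 dendritic markers passed the level filter over all HI and MID cells, and the part of other cell types in the results was not tested. Cells with at least 3 markers of 1 of these other types were left out, together with cells too shallow to thin. Dendritic cell, platelet and megakaryocyte, and multipotent progenitor markers were not counted in this step, so cells with those markers stayed in. This left 16 and 15 HI and 19 and 22 MID cells in the 2 tables and moved Mki67 to 5.41. By the size rule 1.35% of genes were then higher and 1.40% lower, and 7 higher and 11 lower genes were shared with the full comparison. At least 20 Y-linked reads were present in most cells of each group in each table (61 of 68 and 57 of 61 HI cells, 62 of 68 and 57 of 66 MID cells). At least 20 Xist reads were found in 4 and 2 HI cells and in 1 and 0 MID cells of the 2 tables. Xist differed by 1.55, and by 0.97 without 1 HI cell that held 63.4% of HI's Xist reads in the second table. No kept cell had the same counts as another.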

How the data were processed

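Single old HSCs of the HI and MID groups were taken from 2 deposited tables of raw read counts per gene. The submitters' processing notes name mm10 as the build and DESeq2, featureCounts 2.0.0, Subread and STAR 2.7.3a as tools, with no roles given; the authors' counts per gene carry no normalization. Of 46078 gene entries in the tables, 45143 matched the GENCODE annotation by gene ID. Of all reads, 33.4% had no feature, 37.3% were not aligned and 4.09% were ambiguous; these rows and the 92 spike-ins stayed out of library sizes.

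Counts of kept cells were summed per group and table and scaled to CPM with edgeR 4.0.16 TMM factors from the 8 sums of all groups. Differences were taken on the log2(CPM + 1) scale, a pseudocount that understates changes of low genes. The scripts ran on Python 3.11.15 (NumPy 2.4.6, pandas 2.3.3, SciPy 1.17.1, matplotlib 3.10.9) and R 4.3.3, with DESeq2 1.42.0 for alternative size factors, and were tested on simulated data. The size rule and the thinning to 100000 reads (seed 1) are given with the results. Wells held single sorted cells, so no doublet caller was run. Pseudogenes and gene models without a name were barred from the rule. Named genes were the 12 highest and 12 lowest by the size rule, up to the 2 highest and 2 lowest members of each list, members of the cell cycle lists and a short list of fixed genes; genes of the repeat among low-marker cells were taken from the same rule there. Promoters came from RefSeq. The members, lists and rules were chosen with earlier results of these data known. Alternatives covered scaling, pseudocount, filters, cell sets and each table alone. A withheld item is not reported here.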

Additional observations from a re-analysis of the deposited data

How the results depend on the processing

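By the size rule, 1.80% of genes tested were higher in HI and 0.459% lower. Both counts kept within 1.5 times under DESeq2 size factors (195 and 47 genes), unscaled CPM, a pseudocount of 0.1 and means over cells. The same held for thinned cells, stricter cells, cells with Y-linked reads, and without the top 3 HI cells by marker reads. Without the level filter the same 192 and 49 genes were called, 0.574% and 0.146% of genes then tested. The size rule's own floors for CPM and cells nearly fix those calls, so this alternative could hardly change them. The genes behind the counts changed in part. DESeq2 size factors shared 192 higher and 47 lower genes with the main comparison, means over cells 154 and 29, and cells with Y-linked reads 175 and 32. A pseudocount of 10 gave 1.14% and 0.0374%, with an S phase median of 0.81, and a floor of 50 CPM with reads in 25% of cells gave 1.04% and 0.0379%. Thinning moved the S phase median to 1.02 and shared 151 of the 192 higher and 24 of the 49 lower genes. Leaving out cells with at least 3 markers of another type (not dendritic, platelet or multipotent progenitor) gave 1.40% lower from far fewer cells. The G2 and M phase median was then 4.53 and the S phase median 1.93. Leaving out cells with at least 8 markers gave 0.605% higher, medians of 0.46 (G2 and M, 2 markers left) and 0.72 (S), and, with fewer genes tested, medians below 0 for the kinetochore (−0.055), anaphase-promoting complex (−0.036) and histone (−0.016) lists. The first table alone gave 2.85% and 1.76%, and the second 4.01% and 1.67% with an S phase median of 1.02. Without the last set of cell numbers 0.788% were lower, and 210 genes were higher without the MID cell richest in markers in each table; both were added after the data were seen. Counting cells with at least 5 markers gave 42.3% of HI cells. The causes were not tested. In a count that did not take in every named gene, 750 of 912 values moved by less than the spread between tables. In that count 0 values of genes that met the size rule changed sign. Sign changes of its other genes were not counted, and Ccnd3 went from 0.03 to −0.03 without cells with at least 8 markers. Outside it, genes that met the size rule did change sign without cells with at least 8 markers. Cenpa, itself a G2 and M phase marker, went from 1.72 to −0.75 and Hist1h1e from 1.44 to −0.26. Mki67 (−0.34), Kif4 (−0.12) and Cdc20 (−0.50) were also below 0 there, but did not pass the level filter. No paired analysis was possible because cell numbers in the titles do not tie HI cells to MID cells and each group counts as 1 sample. Depth limits genes read in few cells.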
